A study of Mus musculus with 2 samples.

Results

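Hspa1a-positive cells were examined within a culture of effector CD8+ T cells kept in low glucose. The cells came from spleens and lymph nodes of OT-I mice aged 8 to 12 weeks, whose T cells bear 1 transgenic receptor specific for an ovalbumin peptide. That peptide and interleukin-2 (100 U/ml) were present for the first 48 h of culture, after which all cells were moved to expansion medium. They were then held for 20 h in 1 mM glucose (transient glucose restriction, TGR) or in 11 mM glucose (control), with 1 10x Chromium library for each condition. The sample descriptions give 3 days of growth before the exposure instead of 48 h. Whether full glucose was restored ahead of capture is not given in the sources used here. Members were selected on their measured Hspa1a UMIs, where a UMI (unique molecular identifier) is 1 counted transcript. A member was a TGR cell with at least 500 genes, under 10% of its transcripts on mitochondrially encoded genes and at least 1 Hspa1a UMI. This gave 54 members among 2546 TGR cells, and among 5673 cells of both libraries. Each member was set against 10 TGR cells with 0 Hspa1a UMIs and nearly the same number of UMIs, 540 cells in all, called matched cells here. With 1 library there are no replicates, and the cells of 1 library are not replicates of a condition, so no test was run. Differences between members and matched cells are differences in summed UMIs within 1 library, and their 95% intervals cover counting error only.

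Hspa1a and its neighbour Hspa1b encode the stress-inducible HSP70, a chaperone that binds unfolded stretches of proteins and releases them again with ATP. Heat shock factor 1 (HSF1) switches these genes on when unfolded proteins accumulate. It binds heat shock elements, which are arrays of short GAA units in alternating orientation. HSP70 works with J-domain co-chaperones of the HSP40 family, with nucleotide exchange factors such as HSP110, and with HSP90, which completes the folding of kinases and receptors. The constitutive HSP70, Hspa8, and the constitutive HSP90, Hsp90ab1, are abundant in dividing T cells without stress.

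The start regions of 5 heat shock genes are shown, chosen because each holds the heat shock element core, so that its place can be compared among them. Each is 250 bases before to 50 bases after the annotated gene start (RefSeq, GRCm38.p6), written 5′ to 3′ on the gene's strand, with matches to GAANNTTC in capitals. This motif reads the same on both strands. The windows lie at chr17:34972107-34972406 on the minus strand for Hspa1a, chr17:34959189-34959488 on the minus strand for Hspa1b, chr5:135887669-135887968 on the plus strand for Hspb1, chr5:149636266-149636565 on the minus strand for Hsph1 (1 of its 2 entries) and chr1:55087898-55088197 on the plus strand for Hspe1.
Hspa1a: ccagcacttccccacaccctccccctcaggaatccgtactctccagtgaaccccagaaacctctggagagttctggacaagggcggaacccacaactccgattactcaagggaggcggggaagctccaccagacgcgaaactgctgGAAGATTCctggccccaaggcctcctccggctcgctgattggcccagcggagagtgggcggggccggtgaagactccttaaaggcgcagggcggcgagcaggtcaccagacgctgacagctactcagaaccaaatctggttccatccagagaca
Hspa1b: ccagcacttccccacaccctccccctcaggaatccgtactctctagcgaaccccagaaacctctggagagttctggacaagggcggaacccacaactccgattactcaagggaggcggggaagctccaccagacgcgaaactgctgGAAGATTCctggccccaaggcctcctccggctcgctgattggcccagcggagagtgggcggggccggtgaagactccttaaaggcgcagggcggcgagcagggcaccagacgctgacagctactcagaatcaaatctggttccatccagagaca
Hspb1: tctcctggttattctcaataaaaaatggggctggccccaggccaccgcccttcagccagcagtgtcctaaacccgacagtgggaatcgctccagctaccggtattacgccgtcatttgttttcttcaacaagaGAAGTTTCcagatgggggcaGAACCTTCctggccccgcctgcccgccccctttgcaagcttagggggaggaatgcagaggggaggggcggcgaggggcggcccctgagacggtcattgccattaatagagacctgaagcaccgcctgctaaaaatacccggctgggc
Hsph1: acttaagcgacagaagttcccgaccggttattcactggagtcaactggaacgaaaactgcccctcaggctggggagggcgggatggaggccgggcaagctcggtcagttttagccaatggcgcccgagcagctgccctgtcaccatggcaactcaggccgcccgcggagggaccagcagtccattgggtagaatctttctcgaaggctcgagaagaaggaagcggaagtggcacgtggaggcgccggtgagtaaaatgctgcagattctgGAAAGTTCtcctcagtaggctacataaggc
Hspe1: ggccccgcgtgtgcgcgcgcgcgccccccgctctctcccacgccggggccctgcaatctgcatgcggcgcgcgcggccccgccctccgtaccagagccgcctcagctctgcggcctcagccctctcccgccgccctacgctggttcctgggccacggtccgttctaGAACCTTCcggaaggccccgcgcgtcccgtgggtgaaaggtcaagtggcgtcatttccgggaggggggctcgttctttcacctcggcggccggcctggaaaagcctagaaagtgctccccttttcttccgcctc

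The Hspa1a and Hspa1b windows were identical at 296 of 300 positions, and each held 1 core at position -104 relative to the gene start. Hspb1 held 2 cores, at -117 and -97, which 0.344% of all promoter windows did. Hsph1 held 1 core 20 bases after its start with a further GAA or TTC unit at the same spacing, and Hspe1 held 1 core at -84 with such units on both sides. Of 32851 windows in the table, 7.86% held the core and 0.603% held the core with a further unit. No core lay in the windows of Dnajb1 or Cacybp, which says only that these letters are not in those stretches. A match is a description of the letters and not evidence that a factor was bound.

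Hspa1a was found in 2.12% of TGR cells (54 of 2546, exact binomial interval 1.60% to 2.76%), against 0.032% of control cells (1 of 3127, 0.001% to 0.178%). The TGR cells were deeper, with medians of 6266 UMIs in TGR cells and 4030 in control cells. After every cell was thinned to 1500 UMIs, 23 of 2546 TGR cells (0.903%) and 1 of 3036 control cells (0.033%) still had a Hspa1a UMI. Hspa1a chose the members, so its level in them is a description. They held 299 Hspa1a UMIs in all, with a median of 3 per cell and a highest value of 38. Just inside the threshold lay 20 members with 1 UMI, and just outside it 2492 cells with 0. Another 14 members had 2 to 4 UMIs and 20 had 5 or more, and these last 20 cells held 80.6% of the UMIs. The transcript was thus unevenly spread even among the cells that carried it.

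The members were CD8 T cells by their markers. All 54 had a UMI of the 7 CD8 T cell markers found in the files (Cd3e, Cd3d, Cd3g, Cd8a, Cd8b1, Lck and Gzmb), and Cd8a or Cd8b1 itself was seen in 49 members (90.7%) and in 506 matched cells (93.7%). Summed markers stood at 2185 CPM (counts scaled to 1e+06 UMIs of the summed cells) in members and 2356 CPM in matched cells. CD4 T and natural killer cell markers each gave a UMI in 1 member. A B cell marker was seen in 6 members (11.1%), against 58 matched cells (10.7%). Of 7 myeloid markers only Cst3 was seen, in 26 members (48.1%) and 220 matched cells (40.7%). Cst3 was at 60.6 CPM in members, 54.5 CPM in matched cells and 115 CPM in control cells. A UMI of 1 of 4 stromal markers was seen in 10 members (18.5%), against 148 matched cells (27.4%). In members this was always Pecam1, which was also seen in 147 matched cells. Erythroid and platelet markers were at 0 in all members, and 0 of 54 cells allows a share of up to 5.56% of cells with such a UMI. The libraries shared 11 cell barcodes, none of them a member.

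The members did not form 1 kind of barcode. Their depth followed that of the matched cells by construction, with 2575 to 26654 UMIs (median 8886) in members and 2518 to 28027 (median 8840) in matched cells. Mitochondrial transcripts took a median of 2.18% of UMIs in members, but 14 of the 54 members were under 1% (25.9%, 15.0% to 39.7%), against 4 of the 540 matched cells (0.741%, 0.202% to 1.89%). Seen the other way, 29.2% of the 48 TGR cells under 1% carried Hspa1a, against 1.60% of the 2498 other TGR cells. The 14 members under 1% had a median of 844 genes and 57.6% of UMIs on ribosomal protein genes, against 1204 genes and 49.3% in their own matched cells, and 10 of the 14 had a Cd8a or Cd8b1 UMI. The 1% line was drawn after the data were seen. Their part in the results was not tested, and the largest ratios are also given without them.

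**Figure D1:**
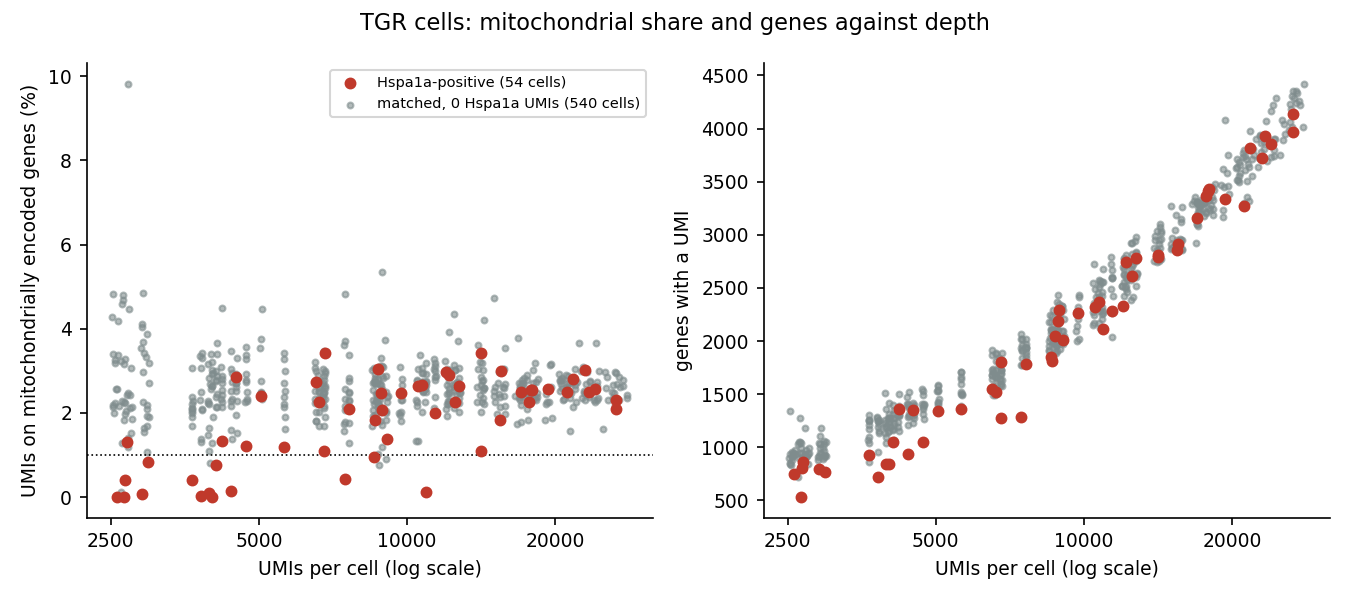
Each point is 1 TGR cell, with UMIs per cell on a log scale against the percent of UMIs on mitochondrial genes (left) and the number of genes with a UMI (right); red points are the 54 Hspa1a-positive cells and grey points the 540 matched cells. The dotted line is at 1%, under which lie 14 red and 4 grey points; several red points at low depth also lie under the grey points in genes detected.

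Genes with a level of at least 50 CPM in members or matched cells numbered 2058 without Hspa1a. Of these, 22 (1.07%) were at least 2-fold higher in members and 17 (0.826%) at least 2-fold lower, and the median log2 ratio of members over matched cells was -0.06. The heat shock and chaperone list held 25 scored genes without Hspa1a, of which 8 (32.0%) were at least 2-fold higher and none 2-fold lower, with a median log2 ratio of 0.58. They included Hspa1b, Hspb1, Hsph1, Hsp90aa1, Dnajb1, Cacybp and Dnaja1. Hspa1b, Hspb1, Hsph1 and Cacybp reached 50 CPM in members only, so that their being higher follows in part from the minimum. Among the 1892 genes with at least 50 CPM in matched cells, 10 (0.529%) were at least 2-fold higher in members. Of the 20 list members among them 4 were, with a median log2 ratio of 0.23 over the 20. All 17 lower genes were among the 1892, so that their being lower follows in part from the minimum. The list summed to 11907 CPM in members and 7644 CPM in matched cells, a ratio of 1.56 (1.52 to 1.60), and to 9885 CPM in control cells. Cell by cell the list spanned 4950 to 32483 CPM (median 12150) in members and 2283 to 20611 CPM (median 7442) in matched cells. The groups overlapped: 47 of 54 members lay above the matched median and 6 above every matched cell, while 4.63% of matched cells lay above the members' median. Without the cells under 1% mitochondrial UMIs, the ratio of the sums was 1.51 (1.47 to 1.55) over 40 members. In these 40 members Hspb1 was at 47.2-fold its level in matched cells (21.2 to 185), Hsph1 at 8.09-fold, Hsp90aa1 at 5.04-fold and Dnajb1 at 3.32-fold. The Hspb1 value rests on 28 UMIs in 10 of the 40 members and 5 UMIs in 3 of their 400 matched cells.

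Hspa1b, the second inducible HSP70 gene, was the gene with the largest ratio. It had 42 UMIs in 22 of the 54 members and 3 UMIs in 3 of the 540 matched cells, or 72.7 CPM in members and 0.52 CPM in matched cells, a log2 ratio of 6.74 (ratio interval 44.5 to 702). Control cells stood at 0.07 CPM. Hspa1b lies beside Hspa1a on chromosome 17 (34956436 to 34959238 for Hspa1b and 34969190 to 34972156 for Hspa1a, both on the minus strand, GRCm38). The genes share part of their sequence, and 58.8% of the 50-base windows of the Hspa1a transcript also occur in Hspa1b. Their last 500 bases share no such window, and the split of reads between the genes is uncertain. Among TGR cells with 0 Hspa1a UMIs, 5 of 2492 (0.201%) had a Hspa1b UMI, against 22 of 54 members (40.7%, 27.6% to 55.0%). The members above and below 1% mitochondrial UMIs both held Hspa1b, in 14 of 40 and 8 of 14 cells. In the 40 members it was at 78.9-fold its level in their matched cells (28.2 to 999.7), from 23 UMIs against 2.

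Of the small heat shock proteins, Hspb1 (HSP27, an ATP-independent holdase) had 31 UMIs in 13 members and 9 UMIs in 6 matched cells. Its level was 53.7 CPM in members, 1.57 CPM in matched cells and 0.07 CPM in control cells, a log2 ratio of 4.96 for members over matched cells (ratio interval 15.9 to 81.8). The difference thus came from a minority of members. Cryab, the small heat shock protein known from lens and muscle, had 0 UMIs in members and 4 in matched cells.

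The HSP70 helpers differed among themselves, within the exchange factors and within the J-domain genes. Hsph1, the HSP110 exchange factor, was at 118 CPM in members, 13.8 CPM in matched cells and 28.1 CPM in control cells (log2 ratio 3.08, ratio interval 6.09 to 12.0), and was seen in 31 members. Dnajb1, the HSP40 that partners HSP70 in the heat shock response, was at 192 CPM in members, 53.5 CPM in matched cells and 67.2 CPM in control cells (log2 ratio 1.84, 2.87 to 4.48). Another J-domain gene, Dnaja1, was at 227 CPM in members, 100 CPM in matched cells and 186 CPM in control cells (log2 ratio 1.18). Other J-domain genes did not share this: Dnajb6 (log2 ratio -0.45), Dnaja2 (-0.43) and Dnajc7 (0.10) were all within 2-fold. St13, the HSP70-interacting protein Hip, had a log2 ratio of 0.78, and Bag1, an exchange factor, one of -0.27. Hspbp1, an exchange factor that inhibits HSP70, stood at 31.2 CPM in members and 59.7 CPM in matched cells (log2 ratio -0.94, ratio interval 0.305 to 0.837). Bag3, a heat-inducible exchange factor, had 2 UMIs in members and 7 in matched cells, too few to compare. Hspa8, the constitutive HSP70, was at 2663 CPM in members, 2072 CPM in matched cells and 1931 CPM in control cells (log2 ratio 0.36).

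The pair of cytosolic HSP90 genes differed from each other in the same way. Hsp90aa1, the inducible form, was at 1079 CPM in members and 191 CPM in matched cells (log2 ratio 2.50, ratio interval 5.11 to 6.24), with 605 CPM in control cells. It was seen in 53 of 54 members and 400 of 540 matched cells. Hsp90ab1, the constitutive form, was at 2735 CPM in members, 2037 CPM in matched cells and 2767 CPM in control cells (log2 ratio 0.42). Cacybp encodes a binding partner of calcyclin and of a ubiquitin ligase. It was at 96.9 CPM in members and 42.3 CPM in matched cells (log2 ratio 1.19), but higher, at 154 CPM, in control cells. The HSP90 co-chaperones Stip1 (log2 ratio 0.89), Fkbp4 (0.58), Ahsa1 (0.24), Cdc37 (-0.08) and Ptges3 (-0.18) were all under 2-fold. Control cells held more Stip1 (57.2 CPM) than members (46.7 CPM) or matched cells (25.1 CPM).

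**Figure D2:**
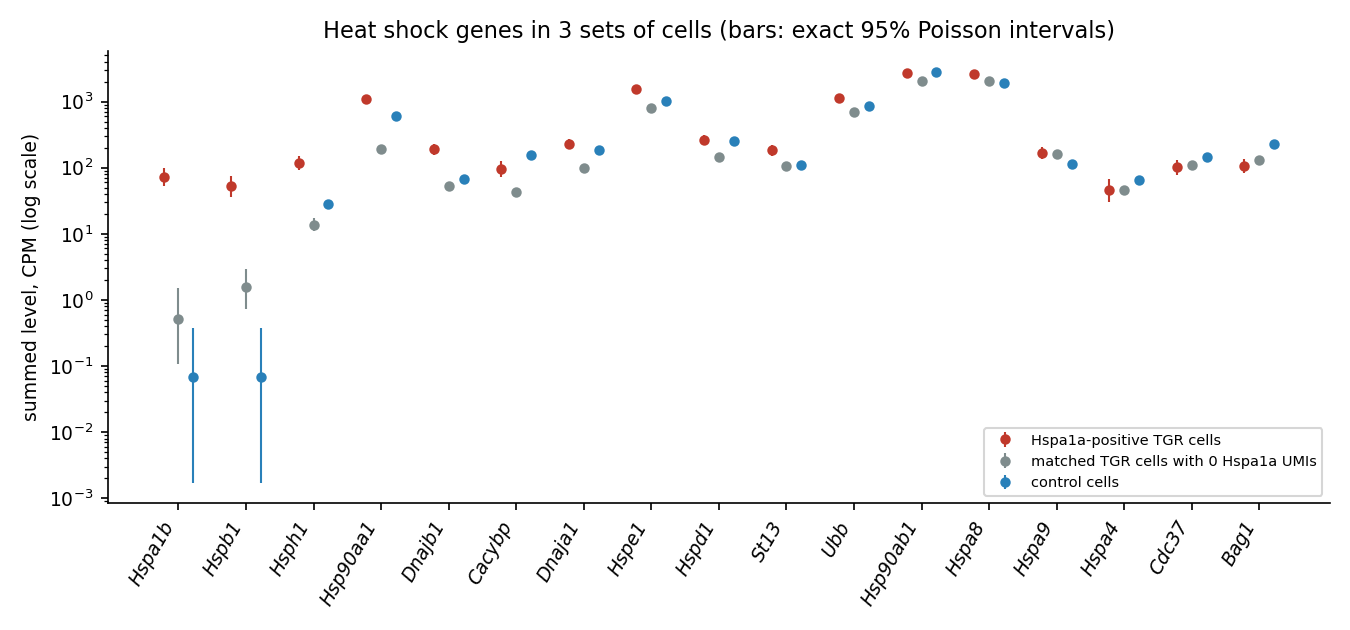
Summed level of 17 heat shock genes in CPM on a log scale, in the 54 Hspa1a-positive TGR cells (red), the 540 matched TGR cells (grey) and 3127 control cells (blue), with exact 95% Poisson intervals as bars, which cover counting error only. Hspa1b and Hspb1 stand apart from both other sets, while for Hspa9 and Hspa4 the red and grey points lie close together.

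In the mitochondrial compartment, the chaperonin genes were higher in members by close to 2-fold or less. Hspe1 (HSP10) was at 1567 CPM in members, 805 CPM in matched cells and 1031 CPM in control cells. Its log2 ratio was 0.96 (ratio interval 1.81 to 2.09), and 1.02 with TMM factors. Hspd1 (HSP60) was at 263 CPM in members, 143 CPM in matched cells and 252 CPM in control cells (log2 ratio 0.88). The mitochondrial HSP70, Hspa9, had a log2 ratio of 0.04 and the mitochondrial HSP90, Trap1, one of -0.01. Ubb, which encodes ubiquitin, was at 1127 CPM in members, 708 CPM in matched cells and 847 CPM in control cells (log2 ratio 0.67). The factors themselves were scarce: Hsf1 had 2 UMIs in members and 57 in matched cells, and Hsf2 had 1 UMI in members and 19 in matched cells. The cytosolic chaperonin CCT, which folds actin and tubulin, had none of its 7 scored subunits past 2-fold and a median log2 ratio of 0.39. None of the 14 scored genes of the endoplasmic reticulum chaperone and unfolded protein response list passed 2-fold either, and their median was -0.14.

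Of the 8 heat shock genes past 2-fold, 6 had a window in the promoter table and 4 of these held the core. Of the 17 other scored members of the list, 13 had a window counted here and 5 held it. Over all promoter windows the share with the core was 7.86%, which counts windows, whereas some genes here have several. The genes are also not independent: the Hspa1b window is nearly that of Hspa1a, which chose the cells. Hspd1 and Hspe1, among the other members, share the same core in overlapping windows. No difference between these counts was tested.

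Few members lacked all of 4 heat shock genes past 2-fold. Of Hspa1b, Hspb1, Hsph1 and Dnajb1, a member had at least 2 with a UMI in 37 of 54 cells (68.5%), against 43 of 540 matched cells (7.96%). None of the 4 was seen in 5 members (9.26%) and in 300 matched cells (55.6%). The 4 genes were picked with their ratios known. Hsp90aa1 was not among them, though its ratio was larger than that of Dnajb1. It had a UMI in 53 of 54 members and 400 of 540 matched cells. The shares for the 4 genes describe the cells and say nothing of whether the genes occur together beyond their single shares.

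The summed level of the other heat shock genes was highest in the members with most Hspa1a UMIs, though single genes did not all follow that order. The members with a single UMI already differed from their matched cells. Each band of members was set against its own matched cells. The list without Hspa1a was at 1.44-fold (1.39 to 1.50) in members with 1 UMI, 1.48-fold (1.41 to 1.56) in those with 2 to 4 and 1.81-fold (1.73 to 1.89) in those with 5 or more. Hsp90aa1 was at 909 CPM in members with 1 UMI and 174 CPM in their matched cells (5.21-fold), at 888 CPM in members with 2 to 4 and 206 CPM in theirs (4.30-fold), and at 1532 CPM in members with 5 or more and 195 CPM in theirs (7.85-fold). The folds of Dnajb1 were 2.13, 2.47 and 7.32 in the same order, and those of Hsph1 were 7.47, 6.12 and 10.5. Dnaja1, at 2.75, 1.89 and 1.90, and Hspd1, at 2.09, 1.87 and 1.42, were highest in the members with 1 UMI. The bands were not alike in other respects. Median UMIs per cell were 11069 in members with 1 Hspa1a UMI, 8592 in those with 2 to 4 and 6076.5 in those with 5 or more. Mitochondrial UMIs were under 1% in 1 of 20, 3 of 14 and 10 of 20 members of the 3 bands, and the last band had a median of 1280.5 genes, against 1635 in its matched cells. In the 10 members with 5 or more Hspa1a UMIs and at least 1% mitochondrial UMIs, the list was still at 1.74-fold (1.64 to 1.83).

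**Figure D3:**
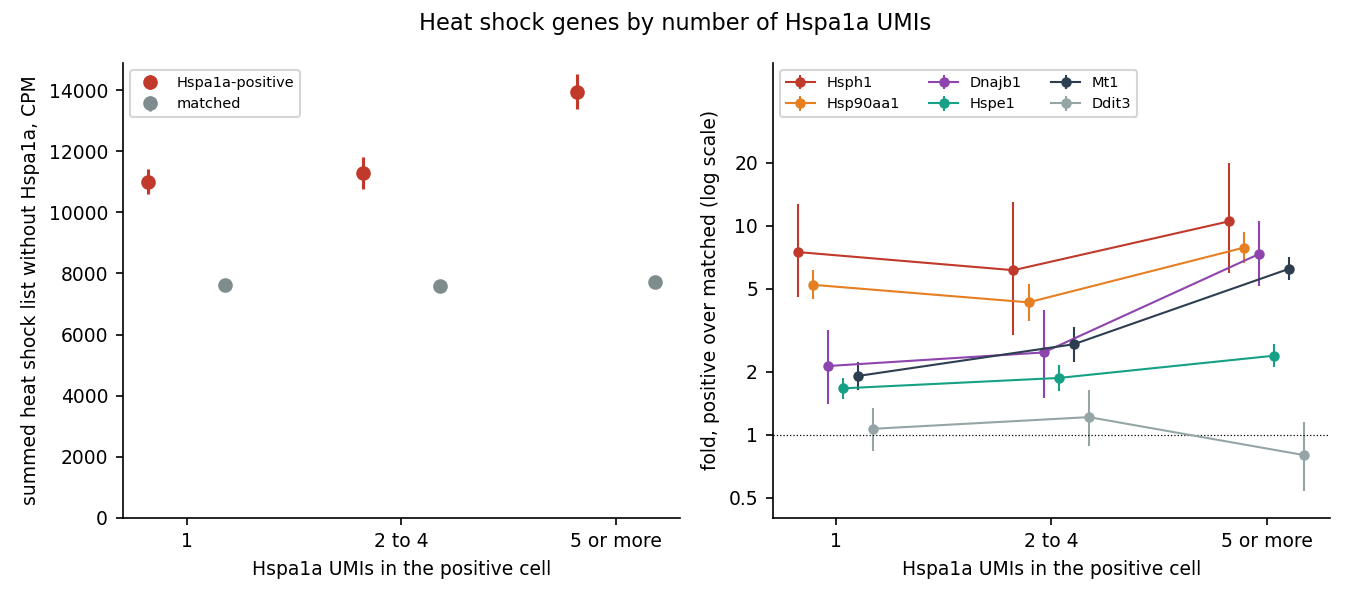
Left, summed level of the heat shock list without Hspa1a in CPM, for members with 1 (20 cells), 2 to 4 (14 cells) or 5 or more (20 cells) Hspa1a UMIs (red) and their matched cells (grey), with exact 95% Poisson intervals. Right, fold of members over matched cells on a log scale for 6 genes with exact 95% intervals; Hsph1, Hsp90aa1 and Dnajb1 are highest in the last band and Ddit3 lies between 0.80 and 1.21 in the 3 bands.

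Outside the chaperones, the highest ratio was that of Hmox1, and both metallothionein genes were among the 12 highest. Hmox1 reached 50 CPM in members only, so that its place among the highest follows in part from the minimum. Mt1 and Mt2 encode metallothioneins, which bind zinc and other metals. Mt1 was at 1314 CPM in members, 399 CPM in matched cells and 182 CPM in control cells (log2 ratio 1.72, ratio interval 3.03 to 3.57), and Mt2 at 750 CPM in members, 227 CPM in matched cells and 38.4 CPM in control cells (log2 ratio 1.72). Hmox1, the heme oxygenase that NRF2 controls, was at 79.6 CPM in members, 10.8 CPM in matched cells and 1.02 CPM in control cells (log2 ratio 2.86, 4.92 to 11.0). These were 3 of the 10 scored genes of the metal and NRF2 list, whose median log2 ratio was 0.03. The ferritin genes Ftl1 (log2 ratio 0.00) and Fth1 (-0.24) did not share the difference.

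Most of the members' Mt1 UMIs came from a few cells. In 6 members (11.1%) Mt1 had 30 or more UMIs, and these held 486 of the 759 Mt1 UMIs of all members; 4 matched cells (0.741%) had as many. Hmox1 was seen in 16 members, of which 13 also had a Mt1 UMI, and Mt1 reached at most 25 UMIs in them. None of the 6 members with most Mt1 had a Hmox1 UMI, which is too few cells to read further. Mt1 was at 5491 CPM in the 14 members under 1% and 433 CPM in their matched cells (12.6-fold), but at 788 CPM in the other 40 members and 390 CPM in their matched cells (2.02-fold). The value under 1% rests on few cells: 2 of the 14 held 258 of the 355 Mt1 UMIs, 10 had 9 or fewer, and without the highest, with 173 UMIs, the level was 3183 CPM. Of the 6 members with most Mt1, 3 were at 1% mitochondrial UMIs or more. Over the 40 members at 1% or more, Mt2 was at 2.14-fold its level in their matched cells. Hmox1 was at 92.8 CPM in the 14 members under 1% and 78.0 CPM in the other 40. Hsp90aa1 was at 2243 CPM in the 14 members under 1% and at 244 CPM in the 34 TGR cells under 1% with 0 Hspa1a UMIs, which had 1390 CPM of Mt1 and 5.94 CPM of Hmox1 (1 UMI). These sets were unlike in other ways, with a median mitochondrial share of 0.128% and 844 genes in the 14 members and 0.816% and 1361 genes in the 34 cells.

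**Figure D4:**
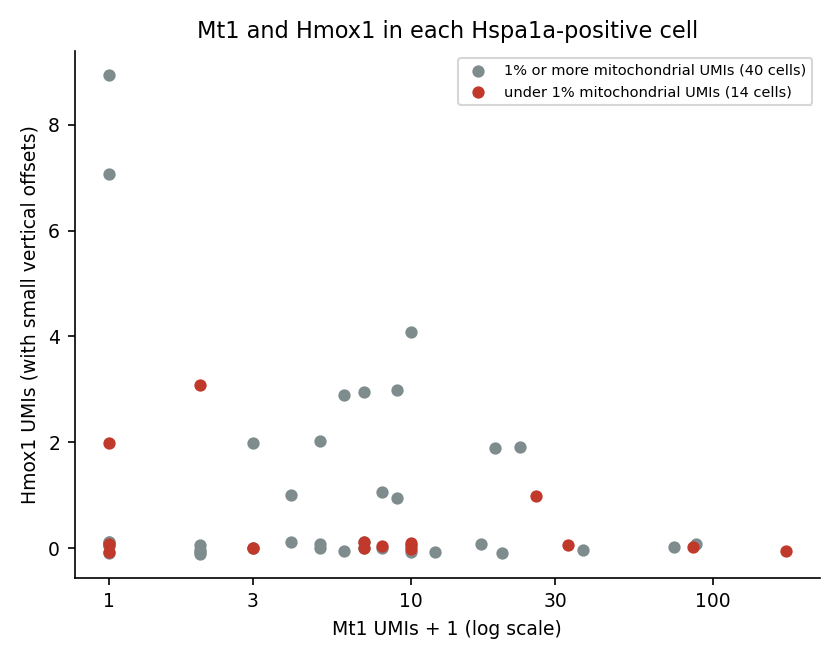
Each point is 1 of the 54 Hspa1a-positive cells, with Mt1 UMIs plus 1 on a log scale against Hmox1 UMIs; red points are the 14 members under 1% mitochondrial UMIs and grey points the other 40. The 6 members with 30 or more Mt1 UMIs all lie at 0 Hmox1 UMIs.

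Acute stress and signalling genes completed the highest ratios. Rgs1, a brake on G protein signalling that marks activated lymphocytes, was at 57.1 CPM in members and 14.6 CPM in matched cells (log2 ratio 1.95). Ppp1r15a (GADD34, which directs the dephosphorylation of eIF2α) was at 50.2 CPM in members and 14.6 CPM in matched cells (log2 ratio 1.77). Ddit4, an inhibitor of mTORC1, was at 151 CPM in members and 51.9 CPM in matched cells (1.53), and Jun, an AP-1 subunit, at 64.1 CPM in members and 21.2 CPM in matched cells (1.58). Rgs1, Ppp1r15a and Jun reached 50 CPM in members only, so that their being higher follows in part from the minimum. Jun was the only scored gene of 8 in the immediate early list past 2-fold, and the list's median was 0.48. Atf3 had 13 UMIs in 8 members and 21 UMIs in 18 matched cells, or 22.5 CPM in members and 3.66 CPM in matched cells. Bnip3, a mitophagy receptor, was at 144 CPM in members and 60.8 CPM in matched cells (1.24), the only one of 13 glycolysis and glucose response genes past 2-fold. Over the members with at least 1% mitochondrial UMIs, Hmox1 was at 6.88-fold its level in matched cells, Rgs1 at 3.58-fold and Ppp1r15a at 3.09-fold. Jun over these members had 39.0 CPM in members and 19.6 CPM in matched cells (1.98-fold), and Ddit4 had 123 CPM in members and 52.8 CPM in matched cells (2.32-fold).

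Ddit3, Atf4 and Cox6a2, which were higher in the TGR library than in the control library, had levels within 2-fold of each other in members and matched cells as a whole. Ddit3 (CHOP), the stress factor induced downstream of ATF4, was at 282 CPM in members, 276 CPM in matched cells and 12.6 CPM in control cells (log2 ratio of members over matched cells 0.03). In the 14 members under 1% mitochondrial UMIs it was at 92.8 CPM, against 217 CPM in their matched cells (0.432-fold, 0.155 to 0.957). That value rests on 6 Ddit3 UMIs in 4 of the 14 members, and its interval covers counting error only. Atf4 was at 324 CPM in members and 287 CPM in matched cells. Cox6a2, a muscle-type cytochrome oxidase subunit, had a UMI in 17 members (31.5%) and 188 matched cells (34.8%). Only Ppp1r15a and Ddit4 of the 16 scored ATF4 and CHOP genes passed 2-fold, and the list's median was 0.12. Of these, Ppp1r15a reached the minimum in members only.

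Effector genes did not stand apart as a group. Gzmb, the cytotoxic granule protease, was at 398 CPM in members and 417 CPM in matched cells, and Nkg7, a granule membrane protein, at 253 CPM in members and 425 CPM in matched cells (log2 ratio -0.75). Ccl5 was at 367 CPM in members and 151 CPM in matched cells (log2 ratio 1.28), but 152 of its 212 UMIs came from 1 member, and without that cell the log2 ratio was -0.41. No scored gene passed 2-fold either way in the proteasome (19 genes, median log2 ratio 0.15), respiration (21, -0.13) or S phase (13, -0.26) lists. The same held for the G2 and M phase (12, -0.04), apoptosis (9, -0.16), autophagy (8, 0.14) and interferon (6, -0.24) lists. It also held for the FOXO (5, 0.20), activation receptor (11, 0.24) and MYC and ribosome biogenesis (10, 0.34) lists. A mixed list of small nucleolar RNA hosts and other long non-coding RNAs, among them Malat1 and Neat1, had none either (5, 0.19). Of 12 memory and naive genes, Ly6c2 alone passed 2-fold, at 67.5 CPM in members and 146 CPM in matched cells (log2 ratio -1.11). The median of that list was -0.19.

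The 12 lowest ratios were for genes with 50.3 CPM to 146 CPM in matched cells. Slfn1, a Schlafen family gene of T cells, was lowest, with 9 UMIs in members and 299 in matched cells, or 15.6 CPM in members and 52.1 CPM in matched cells (log2 ratio -1.73, ratio interval 0.135 to 0.576). After it came Stag1, a cohesin subunit (-1.53), Ramp1 (-1.32), Fkbp2 (-1.32), the interferon-inducible Ifi203 (-1.30), Ptp4a3 (-1.17), Tcf19 (-1.15), Bscl2 (-1.13), the histone methyltransferase Whsc1 (-1.12), Arglu1 (-1.12), the cell cycle factor E2f2 (-1.11) and Ly6c2. Each of these rests on 39 or fewer UMIs in members. All but Ly6c2 reached the minimum in matched cells only, so that their being lower follows in part from the minimum. Without the cells under 1% mitochondrial UMIs their log2 ratios ran from -1.61 for Slfn1 to -0.92 for Ly6c2, the only one of the 12 then under 2-fold.

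**Figure D5:**
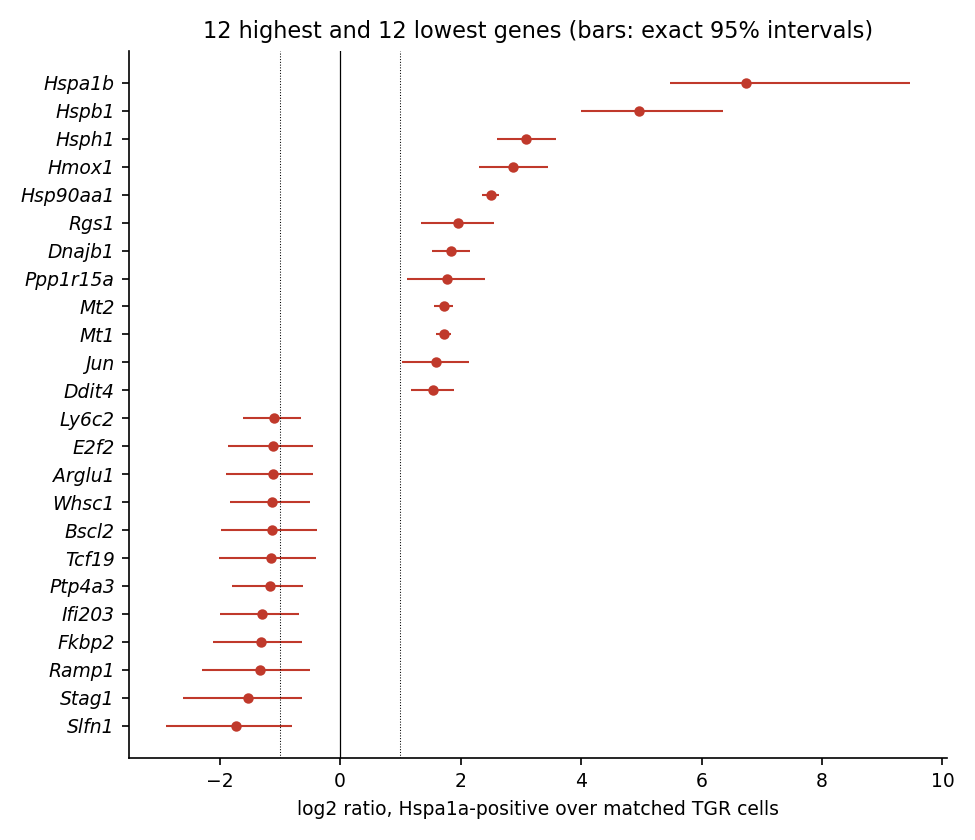
Log2 ratio of Hspa1a-positive over matched TGR cells for the 12 highest and 12 lowest genes of at least 50 CPM in either set, with exact 95% intervals of the ratio as bars and dotted lines at 2-fold. Hspa1b and Hspb1 lie farthest to the right, with wide bars from 3 and 9 UMIs in matched cells, and the lowest gene, Slfn1, lies at -1.73.

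Cell cycle phases were called after each cell was thinned to 1500 UMIs. Among members 31 (57.4%, 43.2% to 70.8%) were called G2M, 8 (14.8%, 6.62% to 27.1%) S and 15 (27.8%) G1. Among matched cells 240 (44.4%, 40.2% to 48.7%) were called G2M, 148 (27.4%, 23.7% to 31.4%) S and 152 (28.1%) G1. These intervals cover counting only and are no test of a difference in phase. None of the 12 scored G2 and M phase genes passed 2-fold. In the members with 5 or more Hspa1a UMIs, 2 of 20 were called G1, against 78 of 200 of their matched cells.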

How the data were processed

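Single-cell libraries of 1 TGR and 1 control culture were used. The deposited values are whole-number counts of UMIs per gene and barcode, with no normalization by the authors. Cell Ranger 2.2, Seurat 3 and mm10 are named in the submitters' processing notes, and the step each served is not given in the sources used here. The TGR file held 2548 barcodes with 19702050 UMIs and the control file 3336 with 15103830, and 2546 and 3127 were kept at 500 or more genes and under 10% mitochondrial UMIs. No doublet caller was run and doublets were not removed.

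Each member was matched, from most to fewest UMIs and without replacement, to the 10 nearest Hspa1a-zero cells by log10 UMIs. UMIs were summed over the cells of each set and scaled to CPM. Log2 ratios used 0.5 UMI added per set, scaled by total, and ratio intervals are exact Clopper-Pearson intervals of the UMI split. Genes of at least 50 CPM in either set were scored. The recovery of known ratios was tested on simulated data, drawn as Poisson counts from the summed profile of matched cells. Such draws hold no spread between cells, so they say nothing of genes whose UMIs lie in few cells. Phases were called with scanpy 1.11.5. Other tools were Python 3.11.15, scipy 1.17.1, R 4.3.3, edgeR 4.0.16 (TMM factors) and DESeq2 1.42.0 (size factors), the last used for scaling only. Gene positions came from GENCODE M21 (GRCm38; 27645 identifiers matched) and promoter windows from RefSeq.

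The named genes are the 12 highest and 12 lowest ratios (without pseudogenes, predicted genes or receptor segments), all heat shock list members with a UMI, the 2 largest ratios and 2 highest levels of each of the other lists, and a fixed set of 10 genes. They number 131, of which the text prints those its statements turn on. A gene that met the rule is not reported here. Members, the 20 lists and the rules were chosen with earlier results of these data known. Markers of gamma delta T cells and Trac were not analysed here.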

Additional observations from a re-analysis of the deposited data

How the results depend on the processing

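The alternatives were other scalings, filters, matchings, pseudocounts and Hspa1a thresholds, and leaving out the cell with most UMIs of a gene. Leaving out cells under 1% mitochondrial UMIs in both groups was chosen after seeing the data. The counts of genes 2-fold higher and lower were 22 and 17 as reported, and 39 and 72 with 2 or more Hspa1a UMIs required, 81 and 247 with 5 or more, 72 and 83 with totals without ribosomal protein and mitochondrial genes, 48 and 81 at 25 CPM, 11 and 2 at 100 CPM, and 1014 and 3523 with no filter on low values. Fewer cells and lower minimums bring in genes of few UMIs by construction. Without the cells under 1% the higher count was 14. The heat shock members past 2-fold numbered 5 at 100 CPM. The log2 ratio of the summed heat shock list, 0.64 as reported, was 0.58 against all Hspa1a-zero cells, 0.72 with 2 or more and 0.85 with 5 or more Hspa1a UMIs, 0.70 with TMM, 0.70 with DESeq2 size factors, 0.68 with totals without ribosomal protein and mitochondrial genes, and 0.59 without the cells under 1%. Hspe1, at 0.96 as reported, passed 2-fold with TMM (1.02), DESeq2 size factors (1.02), the totals that leave out ribosomal protein and mitochondrial genes (1.01), and 2 or more (1.09) or 5 or more (1.26) Hspa1a UMIs. The share of TGR cells with Hspa1a was 1.34% at 2 or more UMIs. Ccl5 reversed to -0.41 without its highest cell and to -0.72 without the cells under 1%. Of 131 named genes, 38 were at 2-fold or more, of which 15 went under 2-fold under some alternative of the 12. For 3 of the 38 the log2 ratio changed sign or reached 0. Only Ccl5 took both signs (-0.72 to 2.91), whereas Cryab and Serpinh1 reached 0 where neither set had a UMI. The 38 include Hspa1a, which chose the members, and genes of few UMIs under the minimum level, such as Cryab, Serpinh1 and Bag3. No paired analysis was possible because there is 1 library per condition. The members hold 577653 UMIs in all, which limits what can be read of genes of low level, and with 1 library nothing here says whether another TGR culture would hold such cells.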

Other observations

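Among the 2492 TGR cells with 0 Hspa1a UMIs, 5 had a Hspa1b UMI and so lay just outside the rule. Together they had 41416 UMIs, with 120.7 CPM of Hspa1b, 362 CPM of Hsp90aa1 (15 UMIs), 145 CPM of Dnajb1 (6 UMIs) and 5095 CPM of Mt1 (211 UMIs). Their mitochondrial share was 1.03% to 2.11%, and 4 of the 5 had a Cd8a or Cd8b1 UMI.

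The share of TGR cells with Hspa1a did not follow depth in order. It was 1.89% (16 of 848) in the bin of TGR cells with fewest UMIs, 0.824% (7 of 849) in the middle bin and 3.65% (31 of 849) in the bin with most.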
